A study of Homo sapiens with 4 samples.

Results

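Chemokines are small secreted proteins that steer migrating cells through receptors on their surface, and 9 of them were followed here in PC3 cells, an established human prostate cancer line of epithelial origin. They were CXCL9, CXCL10 and CXCL11, CXCL16 and CX3CL1, and the CC chemokines CCL2, CCL5, CCL20 and CCL28. The set was chosen by name, as interferon-driven chemokines with CC chemokines, with earlier results of these data known. It comprised 9 of the 19102 genes named on the arrays and 10 of 34127 probes, since CXCL10 had 2 probes. The spot data give accessions in place of gene names, so the probes were found by looking up each accession among RefSeq genes (GRCh38.p14). Cells carried a lentiviral shRNA against ALKBH3, a demethylase that repairs alkylated DNA and RNA, or against GFP as control (control shRNA). Both groups had therefore been infected with lentivirus and selected with puromycin, and RNA was collected 48 h or 96 h into selection. Each of the 4 combinations was measured on 1 single-colour Agilent array. The labels name no single ALKBH3 shRNA construct and do not state if the time points came from separate cultures, so p-values measure only the spread between these arrays. In a bulk culture, fewer cells making a chemokine and less RNA per cell cannot be told apart.

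CXCL9, CXCL10 and CXCL11 share the receptor CXCR3, which draws activated T cells and natural killer cells. Interferons induce these genes through STAT and IRF factors, which bind GAS and ISRE elements, and NF-kB contributes to CXCL10 in particular. CCL20 is the ligand of CCR6 and is a typical target of NF-kB in epithelial cells answering to cytokines or microbial products. CCL2 attracts monocytes through CCR2, CCL5 attracts T cells and monocytes, and CCL28 is a mucosal epithelial chemokine read by CCR10. CXCL16 and CX3CL1 differ from the rest in being made as membrane proteins, from which proteases such as ADAM10 and ADAM17 release the soluble forms.

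The start-site windows of CXCL10 and CCL20 are shown because their time courses are compared below. Each holds 300 bases, of which 250 lie before the annotated start (RefSeq, GRCh38.p14), written from 5′ to 3′ on the strand of the gene. The CXCL10 window is chr4:76023448-76023747 on the minus strand and that of CCL20 is chr2:227813592-227813891 on the plus strand. Capitals mark matches, on either strand, to an ISRE core (GAAANNGAAA, or TTTCNNTTTC in reverse), an NF-kB core (GGGNNNNNCC, or GGNNNNNCCC in reverse) or a GAS element (TTCNNNGAA, which reads alike in reverse), with overlapping matches joined.
CXCL10: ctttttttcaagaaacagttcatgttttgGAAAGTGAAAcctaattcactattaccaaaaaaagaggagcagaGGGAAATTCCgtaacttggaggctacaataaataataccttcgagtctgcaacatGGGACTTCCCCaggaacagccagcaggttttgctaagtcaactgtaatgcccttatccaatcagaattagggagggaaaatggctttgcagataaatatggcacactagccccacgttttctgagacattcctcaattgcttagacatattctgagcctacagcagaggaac
CCL20: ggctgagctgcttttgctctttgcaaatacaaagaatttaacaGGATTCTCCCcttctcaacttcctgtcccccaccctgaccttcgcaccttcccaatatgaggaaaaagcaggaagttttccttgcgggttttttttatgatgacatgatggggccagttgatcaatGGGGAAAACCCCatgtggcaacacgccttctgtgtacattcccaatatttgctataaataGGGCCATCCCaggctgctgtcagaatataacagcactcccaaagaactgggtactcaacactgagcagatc

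The CXCL10 window held 1 ISRE core, GAAAGTGAAA, at positions -221 to -212 from the start, and 2 runs of the NF-kB core, GGGAAATTCC and GGGACTTCCCC. The CCL20 window held 3 runs of the NF-kB core, GGATTCTCCC, GGGGAAAACCCC and GGGCCATCCC, with 0 matches to the ISRE core and 0 to GAS. CXCL9 resembled CXCL10, with 1 ISRE core and 1 NF-kB run. CXCL11 had 0 ISRE cores, 1 NF-kB run and 2 GAS matches. CCL28 had 2 windows, 1 of which held an NF-kB run. CXCL16, CCL2, CCL5 and CX3CL1 had no entry in the promoter table. Of all 35116 windows, 3.57% held the ISRE core, 58.7% the NF-kB core and 7.66% the GAS element, so an NF-kB core match is a common feature of such windows. A match describes letters only, and binding of a factor was not measured.

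**Figure D1:**
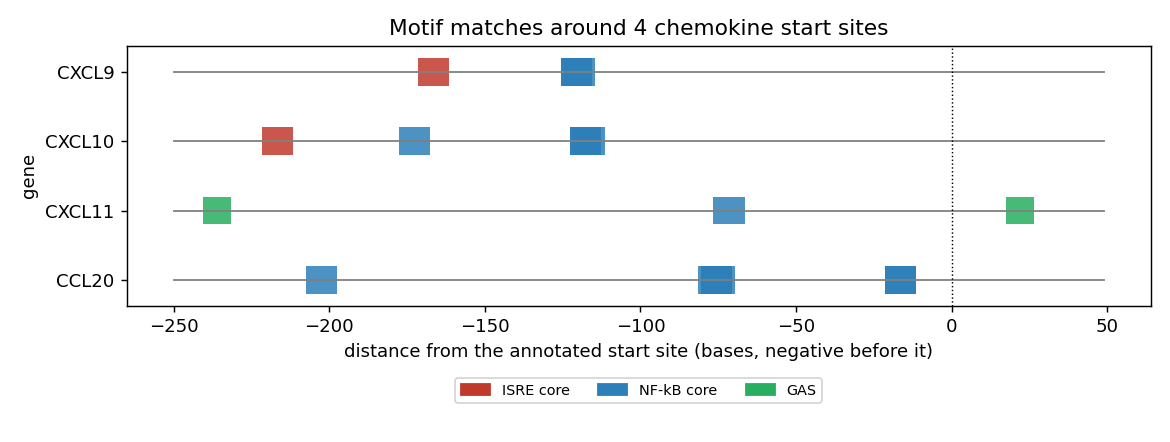
Motif matches in the windows around the annotated starts of CXCL9, CXCL10, CXCL11 and CCL20, with distance from the start in bases on the horizontal axis and 1 line for each gene. Boxes mark matches to the ISRE core (red), NF-kB core (blue) and GAS (green). CXCL9 and CXCL10 hold 1 ISRE core each, and CCL20 holds NF-kB core matches only.

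The deposited intensities were converted to log2 relative to the 75th percentile of each array, which lay between 2134 and 2385 intensity units. Between 67.0% and 70.9% of probes were well above background on an array by the image software, and the dimmest such probe had an intensity of between 18.6 and 25.8. Both 48 h arrays lay on one slide and both 96 h arrays on the other, so time and slide cannot be told apart, whereas each comparison of the shRNAs at 1 time point is within a slide. The ALKBH3 probes were lower with ALKBH3 shRNA by a log2 difference of -2.05 and -1.63 over all arrays. All 8 probes of KRT8, KRT18, EPCAM, CDH1, VIM and CD44 were well above background on every array. Of these epithelial and mesenchymal markers EPCAM was higher with ALKBH3 shRNA by 0.96 at 48 h and 0.99 at 96 h on the log2 scale (limma adjusted p = 0.451, and 0.0377 with time point as a block) and CDH1 by 0.89 and 0.58 (limma adjusted p = 0.894). The other 6 probes had a log2 fold change of between -0.13 and 0.17, and the part of these shifts in the chemokine values was not tested. Of 3 probes of androgen-responsive prostate markers 1 was well above background on at least 1 array, while KLK3 was so on none. Of 17 probes of leukocyte markers 12 were well above background on at least 1 array, and among the 10 tested 0 passed the cutoffs used below.

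The largest differences were in the interferon-induced CXCR3 ligands at 48 h and in CCL20 (see the plot of signals by array). CXCL10 probe A_24_P303091 had an intensity of 15.1 with control and 253 with ALKBH3 shRNA at 48 h, which became 10.6 and 32.0 at 96 h. CXCL10 probe A_33_P3343175 had 22.4 and 171 at 48 h, and 13.3 and 35.4 at 96 h. Both ALKBH3 shRNA arrays lay above both control arrays in each probe, and neither control array was well above background. Where this is so, only a lower limit of the fold can be had, with the dim array set to the lowest signal well above background on it, or to its own signal if that is higher. Where its own signal is used, the fold is the measured one and is not a limit. By this rule CXCL10 was at least 12.7-fold higher at 48 h and at least 1.22-fold at 96 h by the first probe. By the second it was 7.16-fold higher at 48 h, a measured fold, and at least 1.35-fold at 96 h.

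CXCL11, whose product binds CXCR3 and the atypical receptor ACKR3, had an intensity of 57.1 with control and 236 with ALKBH3 shRNA at 48 h. Its 96 h intensities were 25.2 and 43.5, of which the control was not well above background. Within each time point the ALKBH3 shRNA array was the higher, by a log2 difference of 1.96 at 48 h and by at least 1.66-fold at 96 h. The groups overlapped, because the 48 h control lay above the 96 h ALKBH3 shRNA array.

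CXCL9 had an intensity of 62.5 with control and 142 with ALKBH3 shRNA at 48 h, a log2 difference of 1.09. At 96 h its intensity was 53.2 with control and 32.0 with ALKBH3 shRNA, where it was not well above background. The order of the shRNAs was thus opposite at the later time, and this was the case for CXCL9 alone among the 10 probes. Control was 1.70-fold higher there as measured, with a software error of 0.49 for the log2 difference. The order at each time was the same under all 6 other scalings, between 0.53 and 1.10 at 48 h and between -1.03 and -0.45 at 96 h on the log2 scale.

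**Figure D2:**
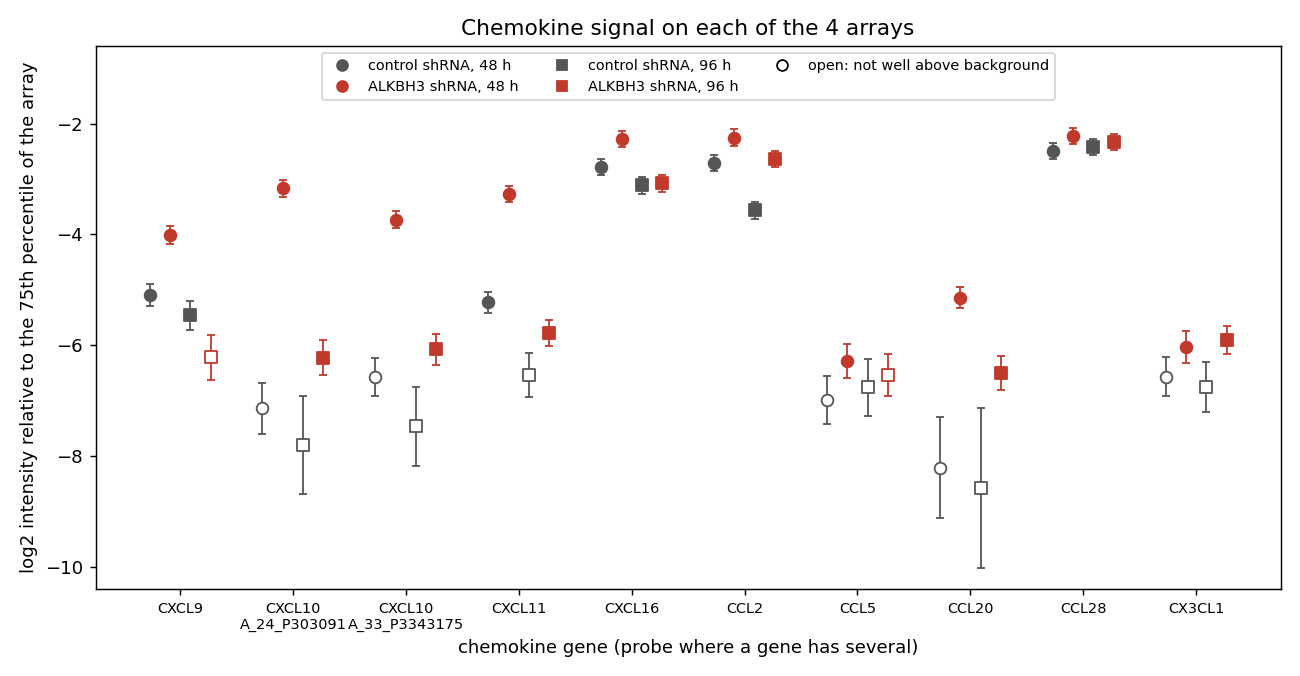
Signal of the 10 chemokine probes on each array, as log2 intensity relative to the 75th percentile of the array (vertical axis, log2). Points are single arrays, bars are the error given by the image software, and open symbols were not well above background. CXCL9, CXCL10 and CXCL11 with ALKBH3 shRNA are highest at 48 h, and the control points of CXCL10 and CCL20 are all open.

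Of the chemokines made as membrane proteins, CXCL16, the ligand of CXCR6, was well above background throughout, with an intensity of 310.3 with control and 469 with ALKBH3 shRNA at 48 h, followed by 270.1 and 282 at 96 h. The log2 difference was 0.50 at 48 h and 0.04 at 96 h, and the groups overlapped. CX3CL1, the ligand of CX3CR1, had 22.5 and 34.9 at 48 h and 21.7 and 39.8 at 96 h, with neither control array well above background. CX3CL1 was 1.45-fold higher with ALKBH3 shRNA at 48 h, a measured fold and not a limit, with a software error of 0.46 for the log2 difference. It was at least 1.52-fold higher at 96 h, and its groups did not overlap. Over all arrays its log2 fold change was 0.69 (with a standard error, SE, of 0.14 and limma adjusted p = 0.384), under the 2-fold cutoff, and with normexp background correction its 48 h difference was -0.01.

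CCL20 had an intensity of 7.20 with control and 64.4 with ALKBH3 shRNA at 48 h, then 6.10 and 26.5 at 96 h. Both control arrays were below the dimmest signal called well above background, and both ALKBH3 shRNA arrays were above it. CCL20 was at least 3.24-fold higher with ALKBH3 shRNA at 48 h and at least 1.01-fold at 96 h, where its signal lay just over that limit. The measured log2 differences of 3.07 and 2.09 rest on control values for which the software gives errors of 0.91 and 1.44.

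CCL2, measured by 10 spots on each array, had 326 with control and 478 with ALKBH3 shRNA at 48 h, then 198 and 382.5 at 96 h. All 4 arrays were well above background and the groups did not overlap. The log2 difference was 0.46 at 48 h and 0.92 at 96 h, so CCL2 and CX3CL1 were the members whose difference was larger at the later time. CCL28 varied least, with 377 and 489 at 48 h and 436 and 472 at 96 h, or log2 differences of 0.28 and 0.09.

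CCL5 was close to background, with 16.8 and 29.0 at 48 h and 21.6 and 25.7 at 96 h, and was well above background with ALKBH3 shRNA at 48 h only. CCL5 was at least 1.46-fold higher there and was not tested by the filter. With normexp background correction its difference was -0.03 at 48 h and -0.02 at 96 h.

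To ask which members differed between the shRNAs, the 23244 probes called well above background on both control arrays or on both ALKBH3 shRNA arrays were compared by limma, 2 arrays against 2, and past the cutoffs means a 2-fold change with an unadjusted p below 0.05. Of the 9 chemokine probes tested, 2 were higher past the cutoffs, CXCL10 and CCL20, and 0 were lower. Over all probes tested 0.895% were higher and 0.232% lower past the cutoffs. Of the 9, 3 were tested through both shRNAs, 1 through control shRNA only (CXCL9) and 5 through ALKBH3 shRNA only. The last 5 include both called probes, and a probe that enters in this way had at least 1 control array not well above background. Such entry favours a higher signal with ALKBH3 shRNA, so the share of the 9 called is a description.

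CXCL10 had a log2 fold change of 2.77 by probe A_24_P303091 (SE 1.03 and limma adjusted p = 0.645), which is at least 3.93-fold over all arrays. By probe A_33_P3343175, which has the higher mean log2 signal, it was 2.11 (SE 0.83 and limma adjusted p = 0.663) and missed the cutoffs. That is 3.11-fold with the 96 h control set to the lowest signal well above background. The CXCL10 probes had the same direction and fell on either side of the threshold. When the ALKBH3 shRNA array at 48 h was left out the values were 1.24 and 0.94, without its 96 h array 4.30 and 3.28, and without the 96 h control array 2.44 and 1.67, where neither probe passed. CCL20 had a log2 fold change of 2.58 (SE 0.47 and limma adjusted p = 0.384), at least 1.81-fold over all arrays, and stayed between 1.90 and 3.25 and past the cutoffs with each array left out in turn.

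None of the other members passed. CXCL11 had a log2 fold change of 1.36 (SE 0.93 and limma adjusted p = 0.839) and CXCL9 one of 0.16 (SE 0.74 and limma adjusted p = 0.991). When the ALKBH3 shRNA array at 48 h was left out these were 0.10 and -0.94, and without its 96 h array 2.61 and 1.27. CCL2 had 0.69 (SE 0.33 and limma adjusted p = 0.727), CXCL16 had 0.27 (SE 0.31 and limma adjusted p = 0.932) and CCL28 had 0.18 (SE 0.12 and limma adjusted p = 0.834). By limma's adjusted p, 0 of the 9 and 0 of all 23244 probes passed 0.05, with 3 of the 9 and 1777 of all at an unadjusted p below 0.05.

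The spread between arrays of 1 shRNA includes the time course. With time point as a replicate block, 4 of the 9 were higher past the cutoffs, against 1.11% of all probes, and all 4 were tested through ALKBH3 shRNA only. The additions were the second CXCL10 probe (limma adjusted p = 0.0672) and CXCL11 (limma adjusted p = 0.100). In this fit CCL20 alone of the members passed the adjusted threshold (limma adjusted p = 0.0389), as did 1.41% of all probes in the higher direction. The only residual of this fit is the gap between the 48 h and 96 h differences. For CCL20 these were 3.07 and 2.09, both against controls that were not well above background. CXCL10 probe A_24_P303091 had a limma adjusted p of 0.0925 there. With normexp background correction the log2 fold change of CXCL10 was 1.05 and 0.67 by its probes and that of CCL20 was 0.60, and none of these passed the cutoffs.

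Across the 34101 probes with a value on every array and with no filter, 5 of the 10 chemokine probes were at least 2-fold higher with ALKBH3 shRNA at 48 h, against 3.38% of all, and 3 at 96 h, against 4.27% of all. The 5 were CXCL9, both CXCL10 probes, CXCL11 and CCL20, and the 3 were both CXCL10 probes and CCL20. The median log2 difference of the 10 was 0.89 at 48 h and 0.80 at 96 h, where that of all probes was 0.03 and 0.02. Of the 10, 9 were higher with ALKBH3 shRNA at both times (34.8% of all) and 7 had both ALKBH3 shRNA arrays above both control arrays (16.2% of all). The set was chosen with earlier results of these data known, so these shares describe it and are not a test. Under the other scalings the sign turned for CCL5, at 48 h with normexp background correction and at 96 h with 4 of 6, and for CX3CL1 at 48 h with normexp.

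**Figure D3:**
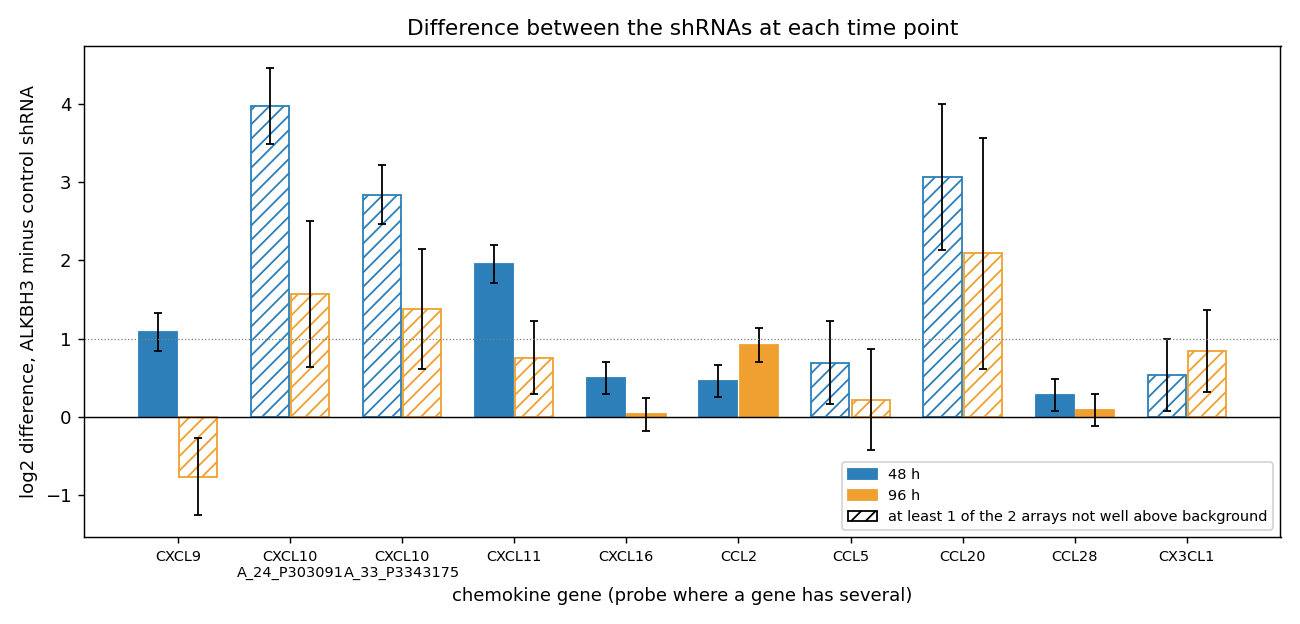
Log2 difference between ALKBH3 and control shRNA for each chemokine probe at 48 h (blue) and 96 h (orange), 1 array against 1 array. Bars start at 0, whiskers are the error of the image software carried into the difference, hatched bars rest on an array that was not well above background, and the dotted line marks a 2-fold difference. The bars of CXCL9 point in opposite directions.

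To ask how the members moved between the times, 96 h was compared with 48 h in an additive fit with shRNA. The only residual of this fit is the gap between the time changes of the shRNAs. Of the 9 tested, 4 were lower at 96 h past the cutoffs, CXCL9, both CXCL10 probes and CXCL11, and 0 were higher, against 0.839% lower and 0.215% higher over all probes. CXCL10 and CXCL11 were tested through ALKBH3 shRNA only, and the set was chosen with earlier results known, so this count is a description. CXCL11 had a log2 change of -1.91 (SE 0.30 and limma adjusted p = 0.0395), and it alone of the members passed the adjusted threshold, as did 2008 of all 23244 probes. CXCL10 had -1.85 (SE 0.57 and limma adjusted p = 0.112) and -1.61 (SE 0.35 and limma adjusted p = 0.0636) by its probes, and CXCL9 had -1.29 (SE 0.45 and limma adjusted p = 0.134). These CXCL10 values average unlike changes, -3.05 and -2.34 with ALKBH3 shRNA and -0.65 and -0.89 with control shRNA, where it was not well above background. CCL20 had -0.86 (SE 0.25 and limma adjusted p = 0.0970), under the 2-fold cutoff. CCL2 had -0.62 and CXCL16 -0.57, while CCL28 and CX3CL1 had -0.02 and -0.03. With normexp background correction 0 of the 9 passed the cutoffs, as every log2 change was under 2-fold. There CXCL11 had -0.86 (limma adjusted p = 1.06e-11) and CXCL9 had -0.64 (limma adjusted p = 1.00e-06). CXCL10 had -0.98 and -0.60 by its probes (limma adjusted p = 4.54e-15 and 5.61e-06). CCL2 and CXCL16 also passed the adjusted threshold with normexp, while CCL20, CCL28 and CX3CL1 did not.

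By shRNA, the CXCR3 ligands and CCL20 fell further with ALKBH3 shRNA than with control shRNA, and CCL2 less. For CXCL10 and CCL20 no control array was well above background, so a fall with control shRNA could not be measured. The CCL20 changes with ALKBH3 and control shRNA were close with some scalings. They were -0.54 and -0.49 with the authors' normalized values, and -0.26 and -0.20 with normexp background correction. Of the 10 probes 5 were at least 2-fold lower at 96 h with ALKBH3 shRNA, against 1.68% of all, and 1 with control shRNA, against 1.6% of all. The 5 were CXCL9, both CXCL10 probes, CXCL11 and CCL20, and the 1 was CXCL11. The median log2 change of the 10 was -1.08 with ALKBH3 shRNA and -0.37 with control shRNA, where that of all probes was 0.09 and 0.07. CXCL11 was at least 2.43-fold higher at 48 h than at 96 h with control shRNA. With ALKBH3 shRNA CXCL9 was 4.64-fold higher at 48 h than at 96 h as measured, with the 96 h signal not well above background. It changed by -0.37 on the log2 scale with control shRNA. The difference between the shRNAs was at least 1 log2 unit larger at 48 h for 4 of the 10, CXCL9, both CXCL10 probes and CXCL11, against 2.71% of all probes. In each of the 4 an array at 96 h was not well above background, so the size of the 96 h difference, and of its gap to 48 h, is not measured exactly. With 1 array for each combination this difference of differences leaves no residual degrees of freedom and was not tested.

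CXCL10 and CCL20 both had their highest value with ALKBH3 shRNA at 48 h and stayed above control at 96 h. The measured fall was larger for CXCL10, which was also brighter at 48 h (see the plot of the time courses). With ALKBH3 shRNA the log2 signal of CXCL10 fell by 3.05 and 2.34 by its probes from 48 h to 96 h, or 8.29-fold by the first, and that of CCL20 by 1.35. The fall of CXCL10 exceeded that of CCL20 by 1.70 and 0.99, with an error carried over from the image software of 0.50 and 0.48, an error that leaves out variation between cultures. The control changes were -0.65 and -0.89 for CXCL10 and -0.37 for CCL20, all between arrays that were not well above background. With ALKBH3 shRNA at 48 h CCL20 had an intensity of 64.4, against 253 and 171 for the CXCL10 probes. At 96 h CCL20 had 26.5, just over the lowest signal well above background on that array. A fall as large as that of CXCL10 could therefore not have been measured for CCL20, and the falls do not rank the courses. The difference between the courses was not tested, as ALKBH3 shRNA had 1 array at each time. Over the 6 other scalings the change with ALKBH3 shRNA was between -3.26 and -1.65 and between -2.52 and -1.09 for the CXCL10 probes, and between -1.64 and -0.26 for CCL20.

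**Figure D4:**
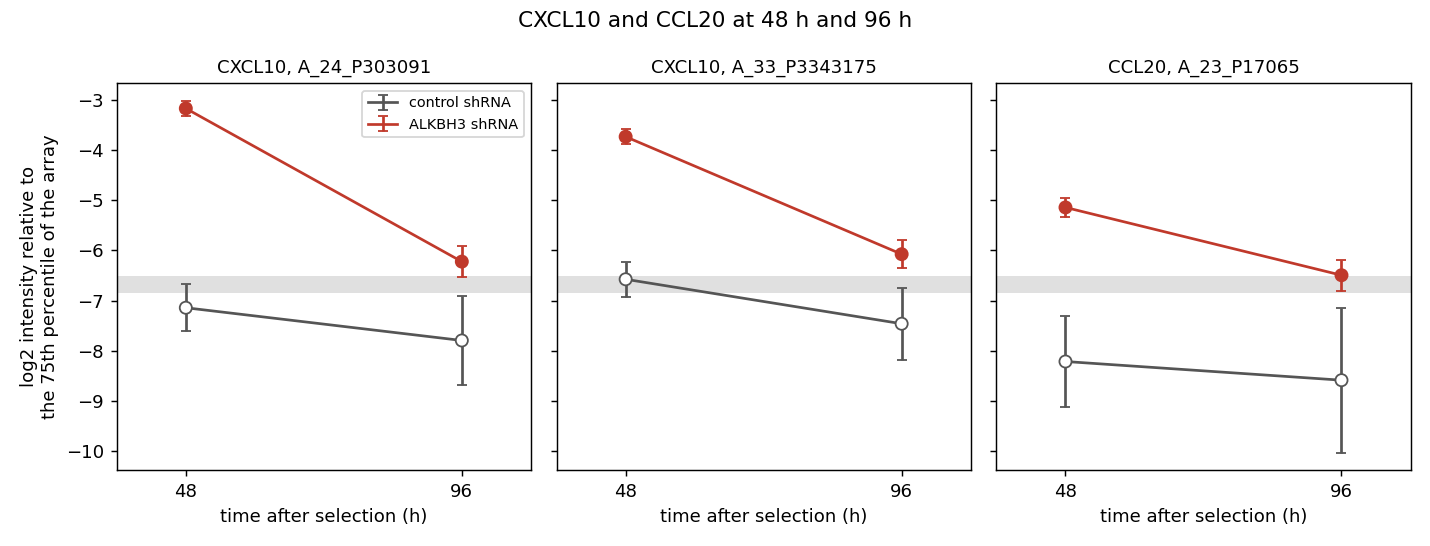
Log2 signal of the CXCL10 probes and of CCL20, relative to the 75th percentile of the array (vertical axis, log2), against time in selection in hours (horizontal axis). Points are single arrays, bars are the error of the image software, open points were not well above background and the grey band spans the lowest signals well above background on the 4 arrays. The line with ALKBH3 shRNA falls by 3.05 and 2.34 for CXCL10 and by 1.35 for CCL20.

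The probes whose 4 values, each centred on its own mean, lay nearest to those of CXCL10 (probe A_33_P3343175) and of CCL20 were then listed among 19001 probes well above background on at least 2 arrays, by Euclidean distance in log2 units. The nearest to CXCL10 were RSAD2 at 0.16, OASL at 0.27, MX2 at 0.36, BST2 at 0.46 and CMPK2 at 0.52. RSAD2, which encodes the antiviral protein viperin, was higher with ALKBH3 shRNA by 3.06 at 48 h and 1.45 at 96 h on the log2 scale, beside 2.84 and 1.39 for CXCL10. The nearest to CCL20 were CD274, which encodes PD-L1, at 0.48, ESPNL at 0.52, TSBP1 at 0.56, HSH2D at 0.57 and SLAMF7 at 0.62. By this probe CD274 was higher by 2.60 at 48 h and by at least 2.79-fold at 96 h, where its control was not well above background. A second CD274 probe, with neither control well above background, was at least 2.49-fold higher at 48 h and at least 1.64-fold at 96 h. CXCL10 and CCL20 lay 0.92 apart, and the CXCL10 probes lay 0.84 apart. These distances are over 4 arrays and carry no test. The software error of the control values was 0.91 and 1.44 for CCL20, more than the distance of every neighbour listed for it. For this CXCL10 probe it was 0.34 and 0.71, so the order of the neighbours is not firm. TSBP1 was well above background on 2 arrays only.

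**Figure D5:**
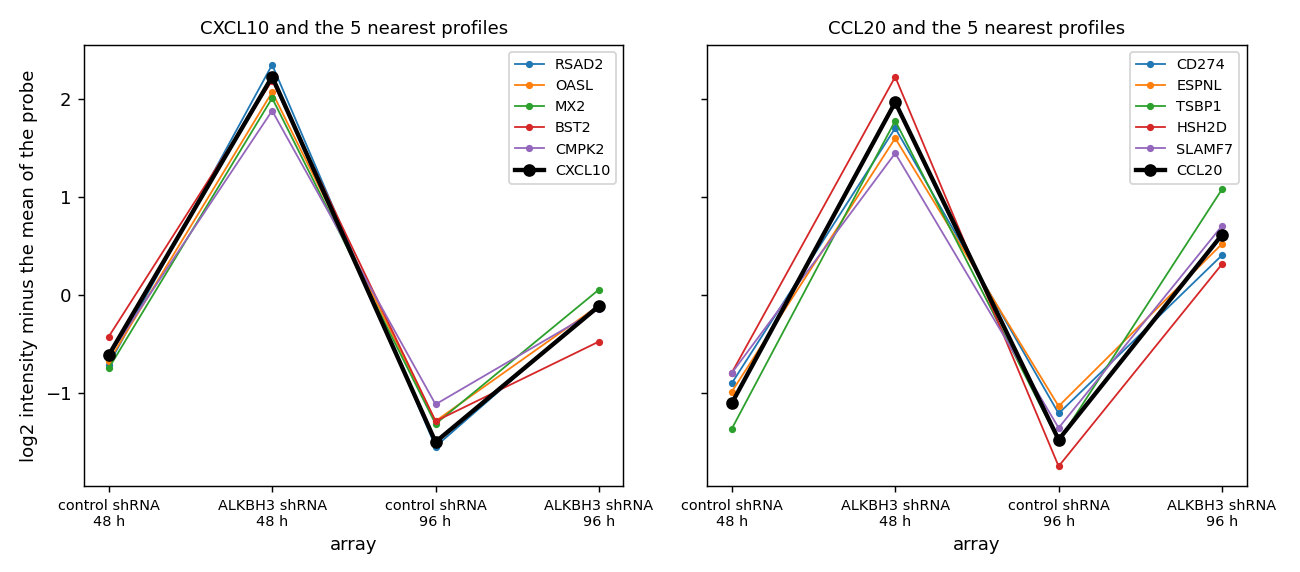
Log2 intensity of CXCL10 (left, black) and CCL20 (right, black) on the 4 arrays after subtracting the mean of each probe, with the 5 nearest probes of other genes in colour. The control and ALKBH3 shRNA arrays at 48 h and 96 h are on the horizontal axis. Values with ALKBH3 shRNA at 96 h lie closer to the probe mean for CXCL10 than for CCL20.

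Of the chemokine receptors, 8 of 21 probes were tested and 0 passed the cutoffs in either direction. CCR1, a receptor of CCL5, had the largest measured difference. Its intensity was 25.8 with control and 366 with ALKBH3 shRNA at 48 h, against 7.0 and 41.7 at the later time. The 96 h control was not well above background, so CCR1 was tested through ALKBH3 shRNA only, and the difference at 96 h is at least 1.59-fold. The log2 difference at 48 h, between arrays that were both well above background, was 3.73. The fitted log2 fold change of 3.14 (SE 1.24 and limma adjusted p = 0.668, or 0.0385 with the time point block) rests on that dim control. CCR6, the receptor of CCL20, had the largest difference downward, -0.26 (limma adjusted p = 0.714). CXCR3 had 0.12 by its tested probe and CCR10 had 0.13, each with a limma adjusted p of 0.954 or more. CXCR6, CX3CR1 and CCR2 were not well above background on any array.

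Of 35 probes of other CC, CXC and XC ligands 11 were tested and 0 passed the cutoffs. CXCL12, the ligand of CXCR4, had the largest difference upward at 0.998 (limma adjusted p = 0.384, and 0.0373 with the block), while a second tested CXCL12 probe had 0.03. CCL17 had the largest downward, -0.19. CXCL8 and its relatives, most of which draw neutrophils, were listed with PF4 among them. Of these 10 probes 9 were tested, of which 0 passed the cutoffs. With the block 3 of the 9 passed limma's adjusted threshold, against 1.41% of all probes in the higher direction. Those were CXCL8 at 1.002 and the CXCL1 probes at 0.67 and 0.70. The median log2 difference of the 9 was 0.64 at 48 h and 0.46 at 96 h.

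Of the interferon receptors and their STAT, JAK and IRF partners, 21 of 22 probes were tested and 0 passed the cutoffs. With the block 1 of the 21 was higher by limma's adjusted threshold, against 1.41% of all probes. IRF1, which is itself induced by interferon, had 0.68 at 48 h and -0.48 at 96 h, a turn between the times like that of CXCL9. IRF7 had 1.002 and 0.52, and TYK2 had the largest difference downward, -0.23 over all. Of NF-kB subunits and regulators all 14 probes were tested and 0 passed. BIRC3 had the largest difference at 0.84 (limma adjusted p = 0.358, and 0.0473 with the block). NFKBIA, an inhibitor that NF-kB itself induces, had 0.57 and 0.72, while NFKB1 had -0.22 and -0.04. NFKBIZ had the largest downward, -0.31 over all.

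Of cytokines known to induce these chemokines 6 of 14 probes were tested, with 0 higher and 1 lower past the cutoffs. The 1 was IL1B, with a log2 fold change of -1.25 (SE 0.36 and limma adjusted p = 0.538, and 0.0377 with the block) and intensities of 6430.2 and 2605 at 48 h and 3849.7 and 1835 at 96 h. IFNL1, an interferon lambda, had 0.85 (limma adjusted p = 0.526), with the 96 h control not well above background. IFNB1 was well above background on 1 array only, that with ALKBH3 shRNA at 48 h, with an intensity of 52.4 against 10.9 with control, and was not tested. TNF was not well above background on any array. Of enzymes that cut chemokines 6 of 9 probes were tested and 0 passed. DPP4, which trims and inactivates CXCR3 ligands, had -0.62 (limma adjusted p = 0.389), ADAM17 had -0.48 (limma adjusted p = 0.564) and the ADAM10 probes had -0.09 and -0.01. The largest upward was MMP9 at 0.21.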

How the data were processed

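PC3 cells with ALKBH3 or control shRNA had been measured at 48 h and 96 h, 1 array each, so 2 arrays stand for each shRNA and their number limits the precision. The authors deposited, for every spot, an intensity from which the image software (Feature Extraction 10.7.3.1 in the file headers) had subtracted the background on each array alone. The authors also deposited log2 intensities normalized between the arrays, used as an alternative. Groups came from the sample titles, and 0 columns of other samples were present.

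Intensities of 43118 spots that are not controls were centred on the 75th percentile of the array and taken to log2. Between 180 and 379 spots on an array were removed as marked poor, 0 were saturated, and spots of a probe were averaged to 34127 probes. A probe was well above background if at least 0.5 of its spots were. RefSeq (GRCh38.p14) named 24910 probes. R 4.3.3, limma 3.58.1 (lmFit and eBayes, Benjamini-Hochberg adjustment) and data.table (version 1.17.8) were used, and the steps were tested on simulated data. ALKBH3 shRNA was compared with control without a covariate, and 96 h with 48 h with shRNA as a term. Same-time arrays are paired by their labels, and deviations from the shRNA means correlated at 0.66 across 23244 probes.

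The text names every member, the largest difference up and down in each list with genes fixed by name, and the 5 nearest profiles. The members and lists were chosen with earlier results of these data known. The alternatives were other background corrections, normalizations, filters, tests and covariates, a fold cutoff of 1.5 and leaving out each array. Normexp (offset 50) used the median pixel signal, as the spot files hold no mean. Probe sequences, ChIP-seq and qRT-PCR are not analysed here. Values of 3 genes that this rule or the marker lists would name are not reported here.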

Additional observations from a re-analysis of the deposited data

Results flagged for a closer look

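Single probes moved in opposite directions under the same contrast in 4 cases, and these differences were not tested because each combination of shRNA and time point had 1 array. For CXCL9 the log2 difference between ALKBH3 and control shRNA was 1.09 at 48 h and -0.76 at 96 h, or 1.85 larger at 48 h. From 48 h to 96 h CCL5 changed by -0.24 with ALKBH3 shRNA and 0.23 with control shRNA, a difference of -0.47 with 3 of its 4 signals not well above background. CCL28 changed by -0.12 and 0.08, a difference of -0.20, and CX3CL1 by 0.12 and -0.18, a difference of 0.31. The error that the image software gives for each of these changes in CCL5, CCL28 and CX3CL1 is at least as large as the change.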

How the results depend on the processing

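The 2 chemokine probes past the cutoffs between the shRNAs became 0 with normexp, normexp with quantile normalization, the unpaired Student test of the methods or a filter on all 4 arrays, which tested 3 probes. They became 1 with quantile normalization, the authors' normalized values, no filter or genes in place of probes, 4 with time point as a replicate block, and ranged from 1 to 5 as arrays were left out one at a time. Dropping the control array gave 4 for 48 h and 1 for 96 h, and dropping the 96 h ALKBH3 shRNA array gave 5. The 4 probes lower at 96 h became 0 with normexp or a filter on all 4 arrays, 1 with normexp and quantile normalization or with no term for the shRNA, and 2 with no filter. Leaving out an array there left no residual degrees of freedom and was not run. The CXCL10 probe of higher mean log2 signal (2.11) passed the cutoffs with centring on the median (2.09) and with the replicate block (2.11), and ranged from 0.94 to 3.28 as arrays were left out. CCL20 (2.58) did not pass with normexp (0.60), normexp with quantile normalization (0.61) or the Student test (2.58). CXCL9 (0.16) changed sign with quantile normalization (-0.027), with the authors' values (-0.058) and when the ALKBH3 shRNA array at 48 h (-0.94) or the control array at 96 h (-0.02) was dropped, in a range up to 1.27. CXCL16 (0.27) did so when the ALKBH3 shRNA array at 48 h was dropped (-0.13), in a range up to 0.67. The cause of these changes was not tested. The called CXCL10 probe (2.77) did not pass with normexp (1.05), normexp with quantile normalization (1.03), quantile normalization (2.498), the authors' values (1.61), no filter or the Student test (2.77 in both), or when the 96 h control array was dropped (2.44). These are all 7 losses among the other values of single probes, of which 84 kept direction and side of the cutoffs and 4 gained them, and beyond CXCL10 and CXCL11 the replicate block changed no call among the members at the cutoffs. A lone array left in a group is assumed to vary like the other group.

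Signals near background limit most values: 5 of 10 probes were well above it on neither control array, and normexp, which adds an offset of 50, compresses such differences. Over all probes 208 were higher and 54 lower past the cutoffs, against 76 and 27 with normexp, 498 and 113 with no filter and 60 and 24 with the Student test.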
